A study of Drosophila melanogaster with 4 samples.

Results

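The genes of the basement membrane that fly blood cells (hemocytes) make were examined in nascent RNA of Drosophila melanogaster S2 cells. The 8 genes were taken by symbol from the 16612 genes of the authors' GRO-seq table: the collagen IV genes Cg25C and vkg, the laminin genes LanA, LanB1 and LanB2, the perlecan gene trol, the nidogen gene Ndg and the peroxidasin gene Pxn. S2 is an established line from late embryos with the character of macrophages, grown in M3 medium with serum, and all 4 libraries came from it without any treatment or genotype being contrasted. GRO-seq (2 libraries, Sample3 and Sample4 after the authors' columns) sequences RNA that engaged polymerases extended in isolated nuclei, and gives how strongly a gene is being transcribed. 5'GRO-seq (2 libraries, replicates 1 and 2) keeps only the capped ends of such RNA, and gives where transcription starts. Nothing in the labels ties the replicates to separate cultures, and the spread between libraries may therefore be technical.

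A basement membrane is a thin sheet of matrix that lines cells and tissues. Laminin, a trimer of an alpha, a beta and a gamma chain, polymerises first at the cell surface. Collagen IV, a triple helix built from the products of Cg25C and vkg, forms the network that gives the sheet its strength, and nidogen and perlecan connect to both. Peroxidasin, the product of Pxn, is a matrix enzyme known to crosslink collagen IV. In the fly, hemocytes and fat body are the known sources of much of this material.

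The genes fell into a high and a low set. The collagen IV and laminin genes among the members, 5 of the 8, stood above 50 FPKM in both GRO-seq libraries (fragments per kilobase of gene span, scaled to library depth). Of protein-coding genes, 3.41% did so. Pxn, Ndg and trol, the other 3, stood under 5 FPKM in both, and no member lay between. The share of all genes under 5 FPKM was not counted. The median protein-coding gene, at 3.69 FPKM in Sample3 and 2.63 FPKM in Sample4, also lay under it, so such a level is common. All 8 had at least 1 FPKM in both libraries, as did 50.7% of all genes. The median of the 8 was 93.0 FPKM in Sample3 and 137 FPKM in Sample4, where the median over all genes was 1.98 and 1.38 FPKM. The members were not chosen by these values, but earlier results on them were known. The levels of 50 and 5 FPKM were not among the planned measures. They are round values that lie in the gap between the members, so the split is a description only.

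Converted back to reads, the FPKM values rest on totals of 6572479 for Sample3 and 2474826 for Sample4. The 8 genes held 0.790% and 1.40% of these reads. Intervals given below are 95% exact intervals from the recovered reads and cover counting error only. In a bulk library, weak transcription in every cell and strong transcription in a few cells cannot be told apart.

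**Figure D1:**
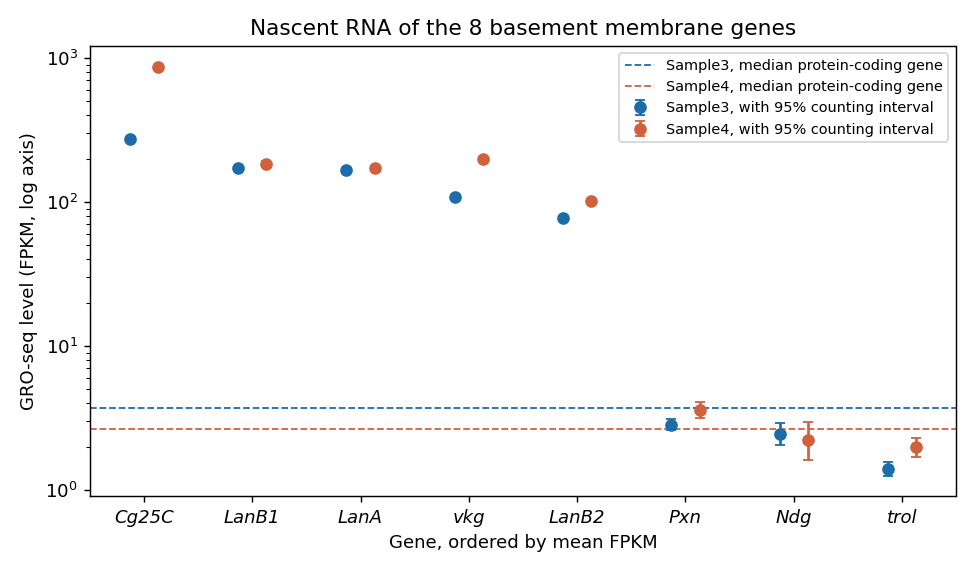
GRO-seq level in FPKM on a log axis for each of the 8 genes, with Sample3 and Sample4 as separate points, bars for the 95% counting interval (hidden by the point where narrow) and dashed lines at the median protein-coding gene of each library. Cg25C, vkg, LanA, LanB1 and LanB2 lie between 77.5 and 863 FPKM. Pxn, Ndg and trol lie between 1.40 and 3.59 FPKM, near or below the dashed lines.

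Cg25C, which encodes an alpha chain of collagen IV (2L, 5029616 to 5036930 in dm3, plus strand), was the highest of the 8. It stood at 276 FPKM in Sample3 (interval 271 to 280 from 13255 reads) and at 863 FPKM in Sample4 (interval 850 to 877 from 15620 reads), with a mean of 569 ± 415 FPKM (SD, n = 2). This placed it at rank 80 and rank 23 of 13939 protein-coding genes. The gap between the libraries was far wider than the counting error.

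vkg (viking), which encodes the partner chain of collagen IV (2L, 5012144 to 5027445, minus strand), stood at 109 FPKM in Sample3 and 199 FPKM in Sample4, 154 ± 64.0 FPKM (SD, n = 2). In each library Cg25C was above vkg per kilobase of span. The ratio of Cg25C to vkg was 2.54 in Sample3 (interval 2.48 to 2.60) and 4.33 in Sample4 (interval 4.22 to 4.46). On the log2(FPKM + 1) scale this was a difference of 1.34 and 2.11. Cg25C was thus above vkg in both libraries by more than counting error, while the size of the gap was not shared between them. The levels are per kilobase of 1 annotated span for each gene, 7314 bp for Cg25C and 15301 bp for vkg. How far the spans affect the gap was not tested.

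The laminin genes among the members were closer to each other and steadier between libraries. LanB1, the beta chain gene (2L, 7814354 to 7820771, plus strand), stood at 172 FPKM in Sample3 and 185 FPKM in Sample4, 178 ± 9.52 FPKM (SD, n = 2). LanA, an alpha chain gene (3L, 6196931 to 6211122, minus strand), stood at 166 and 173 FPKM, 169 ± 5.06 FPKM (SD, n = 2). Their ranges overlapped, and the ratio of LanA to LanB1 was 0.965 in Sample3 (interval 0.939 to 0.993) and 0.934 in Sample4 (interval 0.894 to 0.976).

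LanB2, the gamma chain gene (3L, 9609060 to 9617080, plus strand), was the lowest of the laminin members in both libraries. It stood at 77.5 FPKM in Sample3 and 101 FPKM in Sample4 (89.4 ± 16.8 FPKM, SD, n = 2). Its ratio to LanB1 was 0.451 (interval 0.434 to 0.469) and 0.547 (interval 0.516 to 0.579). The range of LanB2 did not overlap that of LanA or LanB1. These values are per kilobase of one annotated transcript with its introns, and LanB2 has 2 RefSeq transcripts in a later assembly, so a different choice of span would change its level. How far the spans affect the ratios was not tested.

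The remaining genes were transcribed at about the level of the median protein-coding gene, 3.69 FPKM in Sample3 and 2.63 FPKM in Sample4, or below it. Pxn (3L, 2601455 to 2630064, minus strand) stood at 2.84 FPKM in Sample3 and 3.59 FPKM in Sample4, from 534 and 254 reads. It was below the median gene in Sample3 and above it in Sample4. Pxn overlaps the noncoding gene CR45660 on the same strand by 231 bp. CR45660 stood at 12.8 and 8.94 FPKM, so some reads of Pxn may count for both.

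Ndg, whose product nidogen bridges laminin and collagen IV (2R, 6201396 to 6209405, plus strand), stood at 2.45 FPKM in Sample3 and 2.22 FPKM in Sample4, from 129 and 44 reads. Its intervals, 2.05 to 2.91 and 1.61 to 2.98 FPKM, overlapped. trol, the gene of the heparan sulfate proteoglycan perlecan (X, 2364493 to 2399586, minus strand), was the lowest of the 8 with 1.40 and 1.97 FPKM, from 323 and 171 reads. Both trol values were under the median protein-coding gene. trol has 25 RefSeq transcripts in the later assembly against the single span of 35093 bp in the authors' table.

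In order of mean FPKM the genes ran Cg25C, LanB1, LanA, vkg, LanB2, Pxn, Ndg and trol. Neighbours in this order whose library ranges overlapped were LanB1 with LanA and LanA with vkg. The other neighbours did not overlap, with n = 2 libraries on each side. Counting intervals, however, overlapped for Ndg and Pxn in Sample3 (2.05 to 2.91 and 2.60 to 3.09 FPKM). They also overlapped for Ndg and trol in Sample4 (1.61 to 2.98 and 1.685 to 2.287 FPKM). In the other library of each comparison these intervals were apart. Within Sample4 vkg stood above both LanB1 and LanA, and within Sample3 below both, so the order of these genes depended on the library.

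The libraries differed most at the collagen IV genes. Of the 8 genes, 7 were higher in Sample4 and only Ndg was lower. Cg25C was 3.13-fold higher in Sample4 (interval 3.06 to 3.20), the only member past 2-fold, and vkg was 1.83-fold higher (interval 1.78 to 1.89). Among 7666 protein-coding genes of at least 1 FPKM in both libraries, 3.51% were over 2-fold higher in Sample4 and 9.59% over 2-fold lower. The ratio of Cg25C exceeded that of 99.5% of these genes and the ratio of vkg that of 94.9%, where the median ratio was 0.932. The share of these genes that were higher in Sample4 by any amount was not counted. Their quartiles, 0.687 and 1.23, enclosed the ratios of LanA, LanB1 and Ndg.

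Differences at the other genes were smaller. The ratio was 1.04 for LanA (interval 1.01 to 1.08), 1.08 for LanB1 (interval 1.03 to 1.13) and 1.31 for LanB2 (interval 1.24 to 1.38). For Pxn it was 1.26 (interval 1.08 to 1.47) and for trol 1.41 (interval 1.161 to 1.698). For Ndg it was 0.906 (interval 0.628 to 1.29), an interval that includes 1. Each ratio compares single libraries of the same untreated cells, so there is no replicate check on it, and its source was not tested.

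**Figure D2:**
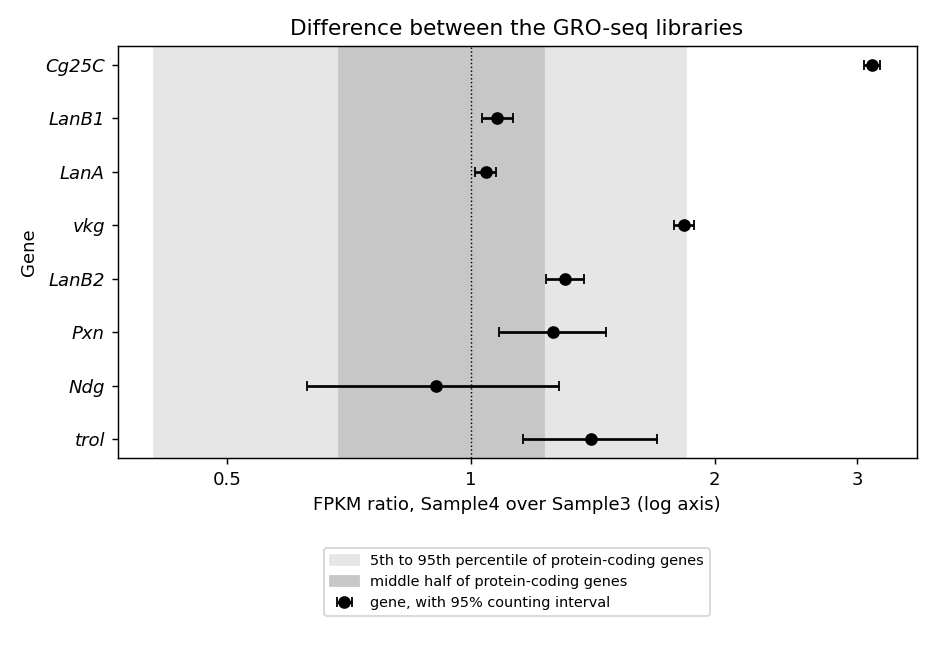
FPKM ratio of Sample4 over Sample3 on a log axis for each gene, with 95% counting intervals, over grey bands for the 7666 protein-coding genes of at least 1 FPKM in both libraries (quartile range dark, 5th to 95th percentile light). Cg25C at 3.13 lies beyond the light band and vkg at 1.83 at its edge, while LanA and LanB1 lie near 1.

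Capped 5' ends marked the starts of most of the high genes. A site counted as being at a gene when its centre lay within 100 bp of the annotated 5' end on the gene's strand. In replicate 1, 5 of the 8 genes had such a site (Cg25C, vkg, LanA, LanB1 and Pxn), against 24.5% of all genes and 47.7% of protein-coding genes of at least 1 FPKM. In replicate 2 there were 3 (vkg, LanA and LanB1), against 14.8% and 28.9%. Both lists had a site at 3 of the 8, where the share of protein-coding genes of at least 1 FPKM was 21.5%. With 8 genes these shares are no more than a description.

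The sites lay almost on the annotated base. At Cg25C the site of replicate 1 was at 5029616, the annotated end itself, 0 bp away. Pxn likewise had its site of replicate 1 at 2630064, at 0 bp. LanB1 started at 7814355, 1 bp inside the annotated end, in both lists.

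At LanA the site was at 6211119, 3 bp inside, and at vkg at 5027437, 8 bp inside, again in both lists. All 3 genes with a site in each list thus had it at the same base, which was so for 64.9% of 1646 protein-coding genes with a site in each. All 5 genes with a site in replicate 1 had it within 10 bp of the annotated end. This was so for 49.0% of the 3653 protein-coding genes of at least 1 FPKM with a site there. The limit of 10 bp was not among the planned measures and lies just above the largest offset of these genes, 8 bp, so this is a description only.

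Cg25C, the most highly transcribed member, had no site at its 5' end in replicate 2. Per the file headers, a site had to pass a minimum of 20 reads (replicate 1) or 14 (replicate 2), 4-fold over a GRO-seq library used as control and 4-fold over the surrounding 1000 bp. Which of these, if any, bears on Cg25C in replicate 2 was not tested. LanB2 had no site at its 5' end in either list despite 77.5 and 101 FPKM. No same-strand site lay anywhere in its span or within 3000 bp upstream.

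Further sense starts lay upstream of some genes in positions that the annotated transcript does not cover. LanB1 had a second site 2914 bp upstream, at 7811440, in replicate 1. LanB1 has 2 RefSeq transcripts in the later assembly, and whether this site belongs to the other was not tested. LanA had a sense site 590 bp upstream, at 6211712, also in replicate 1. These sites stood early in the file of replicate 1, at places 255 and 467 of 6782, beside places 511 and 433 for the sites at the annotated ends. By what the file is ordered is not given in the sources used here.

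The low genes had scattered sites in replicate 2. Ndg had sense sites 164 and 1104 bp upstream of its 5' end, at 6201232 and 6200292, at places 9168 and 8527 of 9387. trol had 3 sense sites inside the gene, 24945, 25699 and 34459 bp from the annotated 5' end. The replicate 1 list had no site within 3000 bp upstream of Ndg or trol, or inside them, on either strand. Pxn had a site on the opposite strand inside the gene in replicate 2, 18053 bp from the 5' end.

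Start sites on the opposite strand accompanied several of these promoters. Of the 5 genes with a site in replicate 1, 3 had a site on the opposite strand up to 250 bp upstream of it, against 11.2% of 3653 protein-coding genes of at least 1 FPKM with a site. The distance between the sense and the opposite site was 96 bp at LanB1, 133 bp at vkg and 175 bp at LanA. In replicate 2 only vkg kept such a site, at the same base, where the share was 4.84% of 2213 genes. Cg25C and Pxn had none in this range. This measure was added after the positions had been seen.

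**Figure D3:**
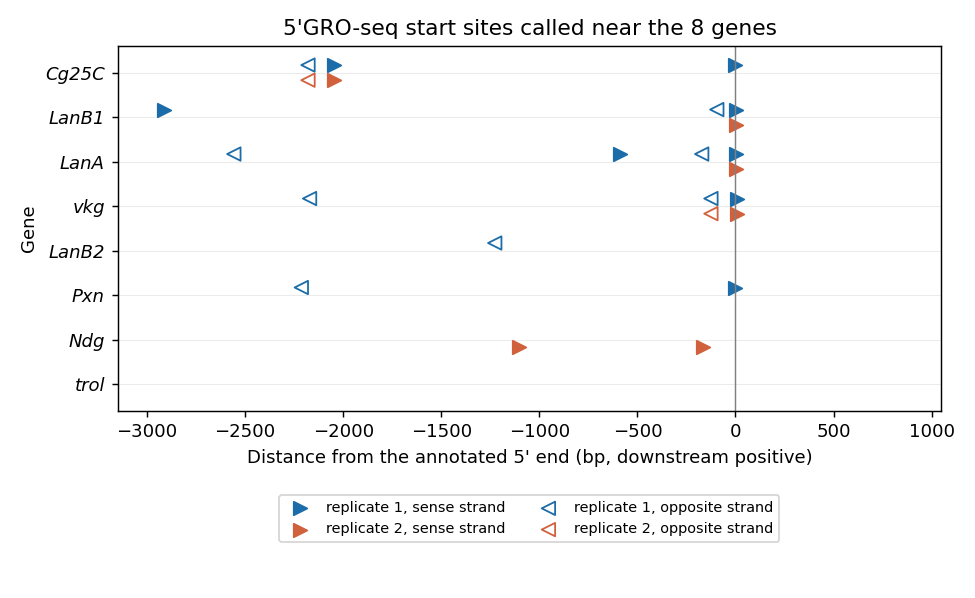
Position of called start sites from 3000 bp upstream to 1000 bp downstream of the annotated 5' end of each gene, with filled triangles for the gene's own strand, open triangles for the opposite strand, blue for replicate 1 and orange for replicate 2. Filled triangles stand at 0 to 8 bp for Cg25C, LanB1, LanA, vkg and Pxn, and no site at the 5' end is shown for LanB2, Ndg or trol.

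Cg25C and vkg lie head to head, and each is transcribed away from the other. Their annotated 5' ends were 2171 bp apart, and the sense sites of replicate 1 were 2179 bp apart. Between them, both lists held a further site at 5027570 on the plus strand. It lay 133 bp from the vkg site and 2046 bp upstream of Cg25C, so it pointed away from vkg and towards Cg25C. Its place in the file was late, 5819 of 6782 and 8841 of 9387, whereas the vkg site stood at places 226 and 200 and the Cg25C site at place 451. The lists do not show whether transcription from this site reached Cg25C.

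**Figure D4:**
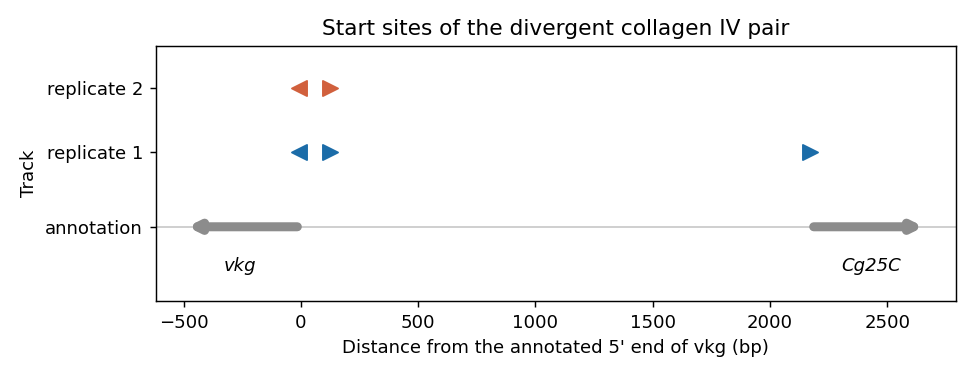
Start sites around the vkg and Cg25C promoters by distance from the annotated 5' end of vkg in bp, with grey arrows for the annotated genes (cut short) and triangles pointing in the direction of transcription. The vkg site and the plus-strand site 133 bp from it appear in both replicates, and the site of Cg25C at 2171 bp appears in replicate 1.

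The collagen IV pair was set beside all protein-coding genes in the same arrangement, with no other annotated 5' end between. There were 2011 such pairs within 1000 bp and 551 beyond 1000 and up to 3000 bp, a class added because the collagen IV pair fell outside the planned distance. Both genes reached 1 FPKM in both libraries in 71.3% of the closer pairs and in 33.4% of the wider ones. By the level of its lower gene, here vkg with a mean log2(FPKM + 1) of 7.21, the collagen IV pair was highest of all 2562 pairs, a description made after the values were seen. The next was l(1)G0320 with RpS28b, at 6.90.

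The 2 genes of the pair differed by 1.72 in mean log2(FPKM + 1). In pairs of this wider class with both genes at 1 FPKM or more, the median difference was 1.07, with quartiles of 0.58 and 2.13. The collagen IV pair therefore lay within the middle range of such pairs. Both genes had a site in replicate 1, as in 19.6% of these 184 pairs.

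By their level in the GRO-seq libraries alone, the protein-coding genes nearest to Cg25C were the ribosomal protein genes RpL22 (290 and 909 FPKM), RpL34b (285 and 760 FPKM) and RpL13 (232 and 851 FPKM). Nearest to vkg were CG1943 (119 and 197 FPKM), Chd64 (106 and 177 FPKM) and VhaM8.9 (109 and 176 FPKM). Likeness was the Euclidean distance on the log2(FPKM + 1) scale over only 2 libraries, 0.10 to 0.25 for Cg25C and 0.13 to 0.18 for vkg.

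Other genes of matrix assembly were read from lists of known genes, and their counts stand beside the 50.7% of all genes with at least 1 FPKM in both libraries. Of 6 further matrix protein genes, 5 had at least 1 FPKM in both libraries, with medians of 52.3 and 92.1 FPKM. BM-40-SPARC, whose product binds collagen IV, stood at 280 FPKM in Sample3 and 496 FPKM in Sample4. The matrix gene Tig stood at 170 and 213 FPKM. Mp, which encodes a multiplexin collagen, was lowest with 0.470 and 0.274 FPKM. Glt was over 2-fold higher in Sample4, the only gene of this list to pass that fold, and was named after its values were seen: it stood at 64.7 and 147 FPKM. None of the 6 had a start site within 100 bp of its annotated 5' end in either list. Of protein-coding genes of at least 1 FPKM, 47.7% and 28.9% had one, a base that does not include Mp.

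Of 15 genes for collagen processing and secretion, 7 had at least 1 FPKM in both libraries, a share near that of all genes. In both libraries 6 were listed at 0, the genes PH4alphaSG1, PH4alphaSG2, PH4alphaNE1, PH4alphaNE2, PH4alphaPV and lox2. Pdi, the gene of protein disulfide isomerase, led with 148 FPKM in Sample3 and 195 FPKM in Sample4. The coat protein gene Sec23 had 49.8 and 56.6 FPKM. Of the 8 prolyl 4-hydroxylase genes in the list, PH4alphaEFB alone passed 1 FPKM, with 16.8 and 15.8 FPKM. Plod, the lysyl hydroxylase gene, stood at 22.3 and 13.1 FPKM, and Tango1, needed for collagen export in the fly, at 31.8 and 45.6 FPKM. The last 3 were named after their values were seen. None of the 7 at 1 FPKM or more passed 2-fold between the libraries.

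Among 12 matrix receptor and linker genes, 11 had at least 1 FPKM in both libraries, with medians of 15.2 and 12.4 FPKM. The integrin beta gene mys was highest at 76.0 FPKM in Sample3 and 77.9 FPKM in Sample4, followed by the talin gene rhea at 29.0 and 29.9 FPKM. The integrin alpha gene if was lowest with 0.959 and 0.362 FPKM. Start sites were found at 6 of the 12 in replicate 1 and at 3 in replicate 2. These shares were near the 47.7% and 28.9% of protein-coding genes of at least 1 FPKM, a base that does not include the gene if. Of 5 matrix remodelling genes, 4 had at least 1 FPKM in both, led by the metalloproteinase gene Mmp1 (28.1 and 32.8 FPKM) and AdamTS-A (11.5 and 9.07 FPKM), with stl lowest (0.430 and 0.596 FPKM).

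Hemocyte markers were mixed in level. Of 13 such genes, 8 had at least 1 FPKM in both libraries, a share not far from the 50.7% of all genes. Their medians were 3.70 FPKM in Sample3 and 4.56 FPKM in Sample4. They summed to 312 and 331 FPKM. The growth factor receptor gene Pvr stood at 68.0 and 77.9 FPKM and Hml, the hemolectin gene of plasmatocytes, at 73.3 and 63.7 FPKM. PPO2, a crystal cell prophenoloxidase gene, was lowest with 0.062 and 0.165 FPKM. The plasmatocyte marker NimC1 stood at 0.926 and 0.757 FPKM, and was named after its values were seen.

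For the listed markers of fat body, the other known source of basement membrane, levels were mostly near 0. Of these 8 markers, 4 were listed at 0 in both libraries (Yp1, Lsp2, Lsp1alpha and Fbp1) and 1 passed 1 FPKM in both. Their medians were 0 and 0.040 FPKM and their sums 1.67 and 3.22 FPKM. Whether these markers would be transcribed in fat body of the embryonic stage that S2 came from was not tested. Their levels therefore do not settle how S2 relates to fat body. The yolk protein genes Yp3 (1.502 and 2.24 FPKM) and Yp2 (0 and 0.748 FPKM) were highest. The 6 muscle markers had medians of 0.062 and 0.0875 FPKM and summed to 4.15 and 2.72 FPKM, led by Mlc2 (3.91 and 2.34 FPKM) and Tm2 (0.033 and 0.175 FPKM), with up at 0 in both. The 5 neuron markers had medians of 0.438 and 0.509 FPKM and summed to 12.3 and 14.0 FPKM, mostly elav (10.1 and 10.1 FPKM) and brp (1.66 and 3.15 FPKM), with Syt1 lowest (0.019 and 0 FPKM). The 3 glia markers had medians of 11.5 and 10.5 FPKM, above those of the hemocyte list, and summed to 38.0 and 25.4 FPKM, with nrv2 at 24.5 and 10.5 FPKM, moody at 11.5 and 14.1 FPKM and repo, the defining glial factor gene, at 1.96 and 0.829 FPKM.

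**Figure D5:**
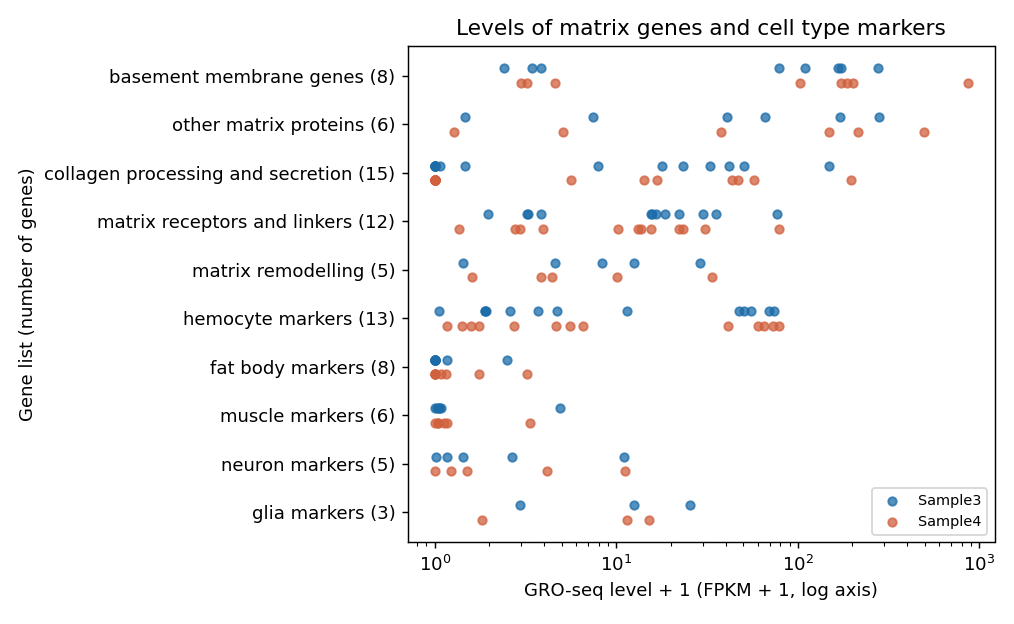
GRO-seq level plus 1, in FPKM on a log axis, of every gene in the 8 basement membrane genes and the 9 lists, with a point per gene in each library. Among the basement membrane genes a gap separates values under 5 FPKM from those above 50 FPKM, and the fat body and muscle markers cluster near an FPKM of 0.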

How the data were processed

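The deposited GRO-seq table holds FPKM, with each gene represented by 1 RefSeq transcript (dm3). Its column names carry no replicate number, so both were used as libraries of the group. Start sites were called with HOMER in its TSS mode for each 5'GRO-seq library, per the file headers, and the score column the authors deposited is a constant score that was not used. Per the file headers the lists came from 13979543 and 6710787 reads and hold 6782 and 9387 sites. CASAVA 1.8.2, Bowtie2 2.1.0 and HOMER 4.7 are named in the submitters' processing notes, without alignment settings.

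FPKM times span gave whole reads for 99.95% of low values in each library (tolerance 0.1 read), which supplied the depth and the intervals. FPKM values are not counts, so no count test was run, and with 2 libraries of a single condition no test between samples was possible. A site was the middle base of its 151 bp interval in 1-based coordinates. With this base the offsets rose sharply at 0 bp on both strands. Members, lists and measures were chosen with earlier results of these data known. All 8 members are described. Of each list the 2 highest genes and the lowest by mean FPKM are named (all that tie at 0), any other being marked in the text as named after its values were seen, and for Cg25C and vkg the 3 nearest genes by level. Later symbols and transcript numbers come from a RefSeq table of Release 6, in which all 8 accessions were found (Cg25C as Col4a1). Promoter and protein sequences were not analysed here. Read recovery and the site search were tested on simulated data. Computation used Python 3.11.15, numpy 2.4.6, pandas 2.3.3, scipy 1.17.1 and matplotlib 3.10.9.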

Additional observations from a re-analysis of the deposited data

How the results depend on the processing

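The results were recomputed with 1 GRO-seq library left out, a pseudocount of 0.1, genes of at least 1 FPKM as background, nested same-strand reads removed (no member had any), other distances for sites and a scaling to the median protein-coding gene. Of 33 alternatives, 29 stayed within the spread between libraries or within 1.5 times the count. Many of these could not have moved, so the tally is no measure of robustness. Leaving out a library gives the single-library values that set the spread, and there were no nested reads to remove. A changed background does not enter the members' own levels or differences. The median log2 difference between the libraries, 0.28 (Sample4 minus Sample3), was 0.36 with a pseudocount of 0.1 and 0.36 after scaling. The number of members past the fold between libraries was 2 at 1.5-fold, against 1 at 2-fold, the addition being vkg. The number of members with a site in both lists, 3, ranged from 3 to 5 when either list was left out. Within 500 bp, 4 members had a site in replicate 2, since the Ndg site at 164 bp was then included. Against genes of at least 1 FPKM, 5 members were above the median gene, and 7 against all genes. The difference of Cg25C and vkg ranged from 1.34 to 2.11 between single libraries. Depth limits Ndg and trol in Sample4, with 44 and 171 reads. No paired analysis was possible because the GRO-seq columns carry no replicate number and no groups were compared by a test.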

Other observations

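Apart from Cg25C and vkg, which lie beside each other, the neighbours of the high basement membrane genes had lower nascent RNA levels. In each library at least 97.9% of protein-coding genes lay below each of these high genes. A lower neighbour is therefore the usual case, and the values are a description only. Downstream of Cg25C, on the same strand and 868 bp away, SP555 had 0.485 FPKM in Sample3 and 0.143 FPKM in Sample4. LanA ended 55 bp from the convergent gene CG8219, which had 1.796 and 0.856 FPKM. LanB2 was followed on the same strand, after 257 bp, by CG3335 with 5.18 and 7.21 FPKM, and preceded by CG3280 with 0.089 and 0.118 FPKM. LanB1 was followed after 764 bp by CG7115 with 11.6 and 11.8 FPKM, which had a mean 15.3 times lower. The convergent neighbour of vkg was less far below it: CG3887, 17 bp away, had 43.5 and 34.4 FPKM.

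The low genes showed the opposite order with some neighbours. CG16985 (24.2 and 18.0 FPKM), 1213 bp downstream of Pxn, and CG42245 (25.1 and 37.7 FPKM), 1651 bp upstream, were both above it, while CG16986, which overlaps it by 7 bp on the opposite strand, had 2.69 and 2.15 FPKM. The gene z, 19910 bp downstream of trol, had 11.8 and 22.3 FPKM, whereas genes around Ndg were at or near 0. CG34222, which overlaps Ndg on the opposite strand, and Obp46a, 1868 bp upstream, had 0 in both libraries, and CG42732, 1004 bp downstream, had 0.147 and 0.086 FPKM.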
